A study of Mus musculus with 4 samples.

Results

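Immunoglobulin gene segments are the pieces from which B cells assemble antibodies. In a developing B cell the heavy chain locus joins a variable (V), a diversity (D) and a joining (J) segment, and a light chain locus, kappa or lambda, joins a V to a J segment. Each joined exon is spliced to a constant (C) segment of its own locus. Transcripts of Ighm with a productive V(D)J exon make the heavy chain of IgM, the first antibody class of a B cell, and the surrogate light chain (Vpreb and Igll1 proteins) pairs with it before a kappa or lambda chain is made. Unjoined segments can be transcribed as well, so that reads on a segment do not by themselves show a joined gene.

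All rows of the 4 expression tables whose biotype is an immunoglobulin segment and not a pseudogene were taken, which gave 110 of 24706 genes. The heavy chain locus held 2 C, 3 J and 59 V segments, the kappa locus 1 C, 3 J and 36 V segments, and the lambda locus 3 C, 2 J and 1 V segment. These rows held no D segment, and no heavy chain C segment of an antibody class other than IgM and IgD. All 110 had the same positions in GENCODE M21 (mouse build GRCm38), with the heavy chain locus on chromosome 12, the kappa locus on chromosome 6 and the lambda locus on chromosome 16.

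RNA-seq of mouse myeloid cells was compared between 2 wt and 2 cko libraries. By the study's account, cko animals carry floxed Pdcd1 (the gene of the inhibitory receptor PD-1) together with LysM-Cre, a Cre recombinase driven from the Lyz2 locus that acts in myeloid cells, and the figures name PD-1f/f mice as controls where the methods name wild-type mice. The cells were from livers in the first days after birth. The results describe CD11b+ cells isolated by flow cytometry and the methods describe RNA of the liver, and no source says whether libraries came from separate animals, so that p-values measure only the spread between these libraries. 

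Counted reads per library, estimated from the FPKM values, ranged from 17691505 to 22212407. Pdcd1, the targeted gene, had 28.5 and 34.7 FPKM (reads divided by exon length and by library total) in wt and 17.1 and 21.4 FPKM in cko. Both cko libraries were below both wt libraries, with a log2 fold change of -0.69 ± 0.19 (SE) and an adjusted p of 0.218 in limma. The sources used here do not say which exon was deleted, and reads on the remaining exons would still be counted. Of the myeloid markers, S100a8, S100a9 and Lyz2 were the highest, each at 8127 FPKM or more in every library, Itgam, which encodes CD11b, lay between 48.5 and 54.3 FPKM, and Adgre1, which encodes F4/80, between 4.64 and 10.03 FPKM.

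All 8 measured J segments are shown first, because they are so short that a single read carries a large FPKM value. Capitals mark the letters TGGGG in heavy chain and TTCGG in light chain J segments, which encode the start of the conserved tryptophan-glycine or phenylalanine-glycine motif (sequences from GENCODE M21, GRCm38, 5′ to 3′ on the coding strand, searched on that strand only).
Ighj1: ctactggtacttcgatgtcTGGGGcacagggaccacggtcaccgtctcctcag
Ighj3: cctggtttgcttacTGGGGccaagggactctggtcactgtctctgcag
Ighj4: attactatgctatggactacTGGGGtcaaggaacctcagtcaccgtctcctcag
Igkj1: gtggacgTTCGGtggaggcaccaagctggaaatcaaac
Igkj2: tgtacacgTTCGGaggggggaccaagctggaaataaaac
Igkj4: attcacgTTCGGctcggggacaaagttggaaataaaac
Iglj1: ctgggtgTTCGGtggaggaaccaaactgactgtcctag
Iglj3p: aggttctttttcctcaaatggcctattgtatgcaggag
The heavy chain letters were in 4 of 4 annotated heavy chain J segments, and the light chain letters in 8 of 10 annotated light chain J segments. Of the segments measured, Iglj3p lacked them in this window, although it is annotated as a J gene.

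The 6 V genes with the highest mean FPKM and the 3 V pseudogenes with the highest mean FPKM are shown by their last 60 bases, since this 3′ end joins the next segment. Capitals mark the letters TANTNCTGT, where the last 3 bases encode the conserved cysteine in front of the joint.
Ighv1-74: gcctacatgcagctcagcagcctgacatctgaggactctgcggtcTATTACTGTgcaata
Ighv1-82: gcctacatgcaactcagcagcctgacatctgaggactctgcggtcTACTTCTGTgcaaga
Ighv8-4: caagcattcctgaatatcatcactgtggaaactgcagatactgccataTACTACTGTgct
Ighv1-52: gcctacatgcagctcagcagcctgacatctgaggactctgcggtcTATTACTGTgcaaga
Ighv1-69: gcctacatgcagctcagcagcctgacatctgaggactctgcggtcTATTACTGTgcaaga
Ighv8-12: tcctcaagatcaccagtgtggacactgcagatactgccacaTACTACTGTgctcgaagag
Ighv1-73 (pseudogene): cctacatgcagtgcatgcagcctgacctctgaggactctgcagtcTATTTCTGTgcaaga
Ighv1-83 (pseudogene): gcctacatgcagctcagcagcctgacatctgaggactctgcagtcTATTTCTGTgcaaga
Ighv1-41 (pseudogene): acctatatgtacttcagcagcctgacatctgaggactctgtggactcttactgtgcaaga
Of these, Ighv1-41 lacked the letters. They were in this window in 101 of 113 annotated heavy chain V genes and in 35 of 70 annotated heavy chain V pseudogenes. Over its whole transcript Ighv1-74 was 96.0% identical to Ighv1-69, Ighv1-52 was 98.6% identical to Ighv1-61, and Ighv8-12 was 95.7% identical to Ighv8-13. Of all 50-base windows of a segment, 63.6% in Ighv1-74, 32.8% in Ighv1-52, 80.3% in Ighv8-12 and 100% in Ighv8-4 were in no other annotated immunoglobulin segment. Reads shared by near-identical segments may have been split or dropped in counting, so that the reads of single V segments in the Ighv1 family are uncertain.

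Immunoglobulin segments made up a small part of every library. Together they held 3332 and 3437 reads in the wt libraries and 1806 and 1773 reads in the cko libraries, out of 10348 in all. Per 1000000 counted reads (RPM) this was 150.0 and 183 in wt and 96.4 and 100.2 in cko. Both cko libraries were below both wt libraries, with means of 166 ± 23.0 RPM (SD, n = 2) in wt and 98.3 ± 2.73 RPM in cko, a ratio of 0.591. Fewer B lineage cells and less immunoglobulin RNA per cell cannot be told apart in bulk samples.

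Constant segments took most of these reads, between 71.9% (95% Clopper-Pearson interval 70.4 to 73.4) in wt replicate 2 and 88.9% (87.3 to 90.3) in cko replicate 2. Such intervals cover counting error only. Heavy chain V segments came next, and heavy chain reads exceeded kappa reads in every library. The lambda locus was close to the lowest detectable level, with 11 and 32 reads in wt and 7 and 7 reads in cko over its 6 segments.

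**Figure D1:**
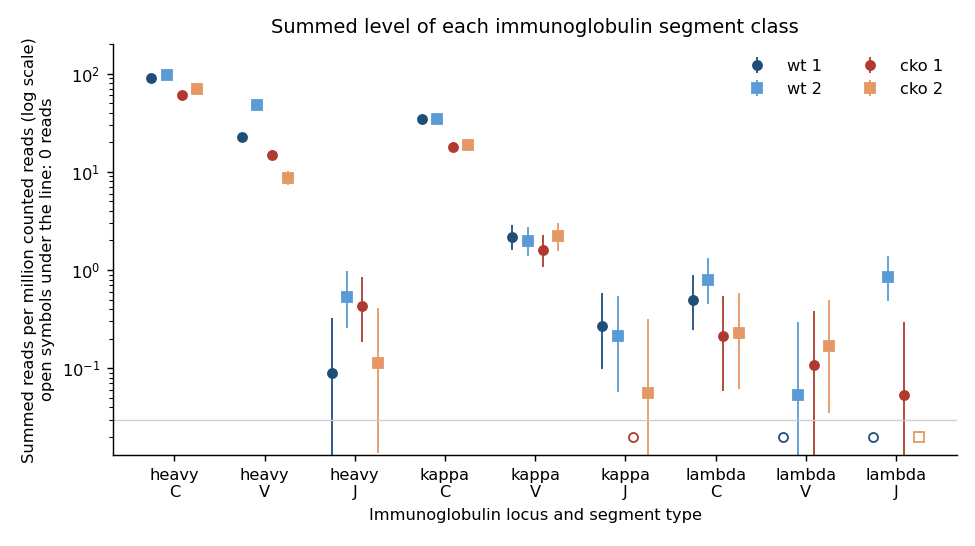
Summed RPM (log axis) of each locus and segment type, 1 symbol per library, with exact 95% intervals of counting error as bars and open symbols for libraries with 0 reads. The heavy C, heavy V and kappa C classes of both cko libraries sit below both wt libraries, whereas the kappa V class overlaps.

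Among the heavy chain constant segments, Ighm (ENSMUSG00000076617, chr12:113418558-113422730, minus strand, 1886 bp of exons) encodes the constant region of IgM. It had 1879 and 1723 reads in wt and 1105 and 1168 reads in cko, or 44.9, 48.5, 31.3 and 35.0 FPKM in the same order. The 2 groups did not overlap, and the log2 fold change was -0.48 ± 0.15 (SE), with an adjusted p of 0.237 in limma.

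Ighd (ENSMUSG00000104213, chr12:113406604-113416324, minus strand) encodes the constant region of IgD, which mature B cells make from the same transcript by alternative splicing. It had 2.91 and 2.52 FPKM in wt and 1.12 and 2.2 FPKM in cko, from 123, 90, 40 and 74 reads. The highest cko library lay just under the lowest wt library, and the difference of -0.51 ± 0.27 on the log2 scale had an adjusted p of 0.405. Per base of exon, Ighm exceeded Ighd 15.4-fold and 19.3-fold in wt and 27.8-fold and 15.9-fold in cko, and these ratios of the groups overlapped.

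Igkc (ENSMUSG00000076609, chr6:70726435-70726966, plus strand, 532 bp), the only constant segment of the kappa locus, had the highest mean FPKM of all segments. It had 64.4 and 64.3 FPKM in wt and 33.6 and 35.1 FPKM in cko, from 761, 644, 335 and 330 reads. Replicates of a group lay close together and the groups far apart, and the log2 fold change was -0.89 ± 0.13, with an unadjusted p of 0.000767 and an adjusted p of 0.183. It missed the limit of 1 on the log2 scale. The lincRNA Gm30211 overlaps Igkc and Igkj4 on the same strand, so reads of both could not be told apart.

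The ratio of Igkc to Ighm FPKM was 1.44 and 1.33 in wt and 1.07 and 1.0 in cko. Both cko ratios were below both wt ratios, with no test of this ratio. Kappa dominated the light chain constant reads, with 98.6% and 97.7% in wt and 98.8% in each cko library, and the intervals of all libraries overlapped.

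Iglc1, Iglc2 and Iglc3, the constant segments of the lambda locus, had 11 and 15 reads in the wt libraries and 4 and 4 in the cko libraries. Iglc2 had 8, 7, 4 and 0 reads, Iglc3 had 2, 4, 0 and 4 reads, and Iglc1 had 1, 4, 0 and 0 reads in wt replicates 1 and 2 and cko replicates 1 and 2. None of these segments reached the mean of 1 FPKM needed for the test. A count of 0 allows up to 3 reads, as a one-sided limit of counting error that is narrower than the two-sided intervals above.

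For J segments, most values rested on a few reads. A segment of 38 bp gains between 1.18 and 1.49 FPKM per read, against 0.0450 to 0.0565 FPKM for a gene of 1000 bp. Ighj4, the heavy chain J segment nearest the constant region among those measured, had 2 and 4 reads in wt and 2 and 2 in cko. Ighj3 had 0, 5, 6 and 0 reads, and Ighj1 had 1 read, in wt replicate 2.

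On the kappa side, Igkj4 had 6 and 1 reads in wt and none in cko. Igkj1 had 2 reads in wt replicate 2, and Igkj2 had 1 read each in wt replicate 2 and cko replicate 2. On the lambda side, Iglj3p had 11 reads in wt replicate 2 and 1 in cko replicate 1, and Iglj1 had 5 reads in wt replicate 2. Reads on J segments thus stood mostly in wt replicate 2, with 30 of the J reads there against 8, 9 and 3 in wt replicate 1 and cko replicates 1 and 2. The antisense gene 2010309G21Rik covers Iglj1 and Iglj3p on the other strand, and the strand setting of the counting is not given in the sources used here.

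Heavy chain V segments held 502 and 897 reads in wt and 281 and 152 reads in cko, which is 22.6, 47.7, 15.0 and 8.59 RPM. Both cko libraries were below both wt libraries, although the wt libraries differed from each other by more than wt replicate 1 differed from cko replicate 1. The mean was 35.1 ± 17.7 RPM (SD, n = 2) in wt and 11.8 ± 4.53 RPM in cko, a ratio of 0.336. Without wt replicate 2 the log2 ratio of means was -0.94, and without wt replicate 1 it was -2.01.

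Ighv1-74 (ENSMUSG00000094124, chr12:115802648-115803080, minus strand) alone held a large share of these reads. It had 244 and 479 reads in wt and 140 and 42 in cko, or 31.3, 72.5, 21.3 and 6.76 FPKM. The groups did not overlap, and the log2 fold change was -1.89 ± 0.59, with an unadjusted p of 0.0211 and an adjusted p of 0.246. Its share of the heavy chain V reads was 48.6% (44.2 to 53.1) and 53.4% (50.1 to 56.7) in wt, 49.8% (43.8 to 55.8) in cko replicate 1 and 27.6% (20.7 to 35.5) in cko replicate 2. Only cko replicate 2 stood apart.

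Ighv1-82 (chr12:115952538-115953005) had 42 and 89 reads in wt and 26 and 18 in cko. Ighv8-4 (chr12:115024026-115024459) had 40, 83, 23 and 9 reads, and Ighv1-52 (chr12:115145487-115145919) had 47, 84, 16 and 0 reads. In these 3 segments wt replicate 2 was highest, cko replicate 2 was lowest and the groups did not overlap. Their adjusted p-values in limma were 0.272 for Ighv1-82, 0.250 for Ighv8-4 and 0.214 for Ighv1-52.

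Ighv8-12 (ENSMUSG00000076731, chr12:115647945-115648387, minus strand) was the one tested immunoglobulin segment past the limits of a log2 fold change beyond 1 and an unadjusted p under 0.01. It had 17 and 17 reads in wt and 3 and 1 reads in cko, or 2.14, 2.52, 0.447 and 0.158 FPKM. Its mean was 2.33 FPKM in wt and 0.303 FPKM in cko, so that it passed the filter of a mean of 1 FPKM only on its wt values and would not have been tested on its cko values. The log2 fold change was -1.36 ± 0.27, with an unadjusted p of 0.0029 and an adjusted p of 0.199. In the limma fit across all genes it no longer passed without wt replicate 1 (log2 fold change -1.44, 0.0118 unadjusted), without wt replicate 2 (-1.28, 0.0173) or without cko replicate 2 (-1.20, 0.0125), while the fold change stayed near its full value. Its cko values rest on 3 reads and 1 read.

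Ighv1-69 (chr12:115623161-115623595) had 26 and 30 reads in wt and 7 and 12 in cko, without overlap of the groups. Ighv1-81 (chr12:115920279-115920712) had 8, 12, 0 and 14 reads, and Ighv8-6 (chr12:115165777-115166220) had 6, 10, 6 and 9 reads. The last 2 segments overlapped between groups. The lower wt values of Ighv8-6 and its cko values could not be separated at this depth.

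**Figure D2:**
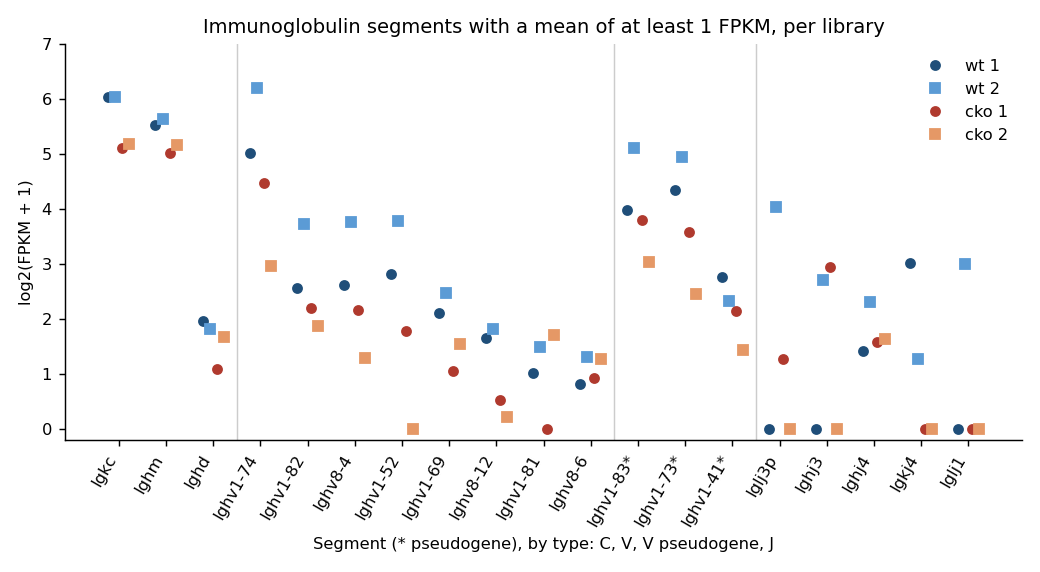
log2(FPKM + 1) in each library for the 16 segments that had a mean of at least 1 FPKM and for the 3 pseudogenes (starred) above that mean, grouped by type. Igkc, Ighm and the V segments from Ighv1-74 to Ighv8-12 in this order have both cko libraries below both wt libraries, and the J segments, which had 11 or fewer reads in every library, show no common order of libraries.

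The reads of heavy chain V segments were uneven along the locus. All 59 segments lie on the minus strand, and distance was counted from Ighj1. The 9 segments within 500 kb had 9 and 6 reads in wt and 5 and 9 in cko, and did not separate the groups. The 15 segments at 2000 to 2600 kb had 369 and 668 reads in wt and 198 and 102 in cko, and the 10 at 1500 to 2000 kb had 106, 190, 63 and 23 reads. In both of these distal intervals the cko libraries were below the wt libraries. Ighv1-74 alone held 244, 479, 140 and 42 of the reads at 2000 to 2600 kb. Between these and the nearest interval, the 14 segments at 500 to 1000 kb had 7, 24, 9 and 4 reads. The 11 segments at 1000 to 1500 kb had 11, 9, 6 and 14 reads, and the groups overlapped in both middle intervals.

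The families Ighv1 and Ighv8, which are spread over the distal part of the locus, held 95.4% and 96.2% of the heavy chain V reads in wt and 92.9% and 89.5% in cko. Ighv5, a proximal family with 8 segments here, had 9, 6, 4 and 9 reads. Outside the 8 segments with the highest mean FPKM, the other 51 heavy chain V segments had 72 and 93 reads in wt and 60 and 47 in cko, or 3.24, 4.94, 3.20 and 2.66 RPM, so that wt replicate 1 and cko replicate 1 were nearly equal. The 4 highest segments held 74.3%, 81.9%, 73.0% and 45.4% of the heavy chain V reads in wt replicates 1 and 2 and cko replicates 1 and 2.

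**Figure D3:**
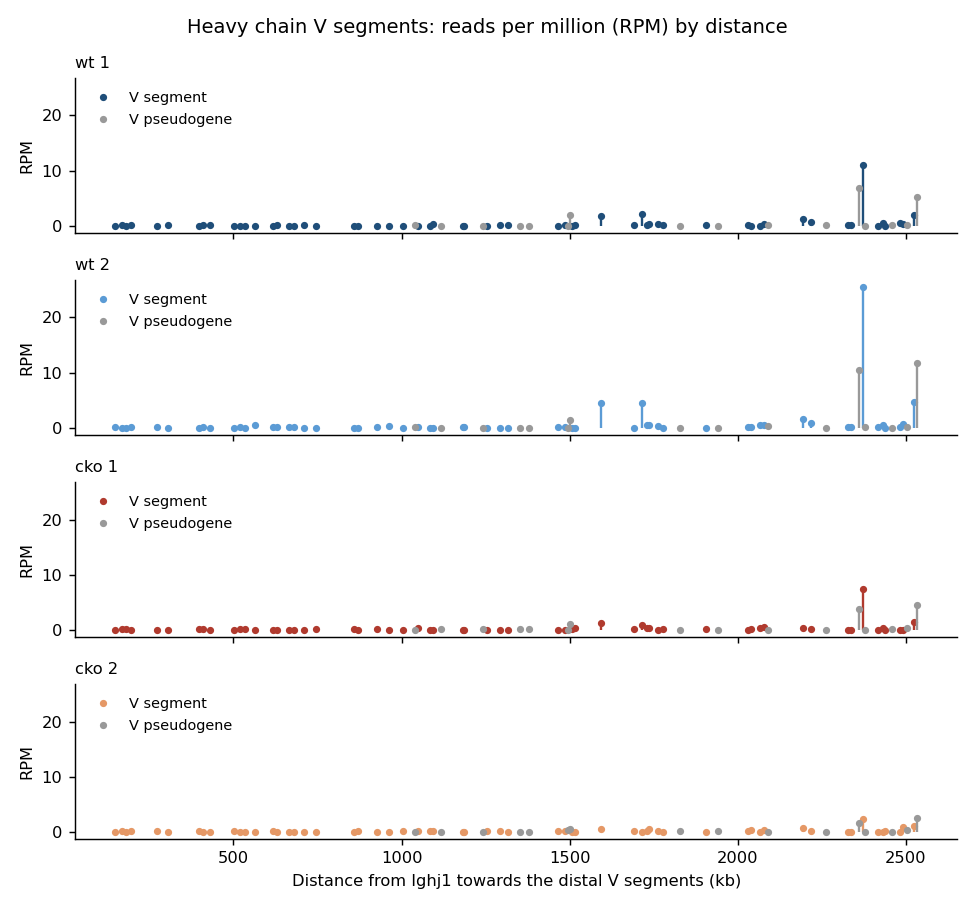
RPM of each heavy chain V segment (coloured) and V pseudogene (grey) against its distance from Ighj1 in kb, 1 panel per library on a common axis. Reads concentrate beyond 1500 kb in all libraries, with Ighv1-74 highest in each wt library and in cko replicate 1.

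Heavy chain V pseudogenes, which are not members, were read as well, mostly at Ighv1-73, Ighv1-83 and Ighv1-41. In every library Ighv1-73 had fewer reads than its neighbour Ighv1-74, and Ighv1-83 had more than its neighbour Ighv1-82. Ighv1-73, 11.6 kb from Ighv1-74, had 151 and 198 reads in wt and 72 and 28 in cko, with a log2 fold change of -1.63 ± 0.41 and an unadjusted p of 0.00826 in limma (adjusted p = 0.214). Ighv1-83, 10.8 kb from Ighv1-82, had 115, 220, 85 and 45 reads, and Ighv1-41 had 42, 25, 21 and 10 reads. Over all 16 heavy chain V pseudogenes there were 14.4 and 24.4 RPM in wt and 10.2 and 5.43 RPM in cko, the same order of libraries as for the V genes.

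Kappa V segments gave another picture. The 36 segments had 48 and 37 reads in wt and 30 and 39 in cko, or 2.16, 1.97, 1.60 and 2.2 RPM, with overlapping groups and a ratio of means of 0.922. No segment had more than 8 reads in any library. Igkv9-124, with the highest mean FPKM among them, had 0 and 6 reads in wt and 3 and 3 in cko, and Igkv14-111 had 7, 0, 2 and 4 reads. Igkv5-39 had 1, 2, 2 and 5 reads and Igkv10-96 had 2, 5, 0 and 3. Per 100 reads of the constant segment, there were 6.31 and 5.75 kappa V reads in wt and 8.96 and 11.8 in cko, against 26.7, 52.1, 25.4 and 13.0 heavy chain V reads per 100 Ighm reads. Iglv3, the lambda V segment, had 0 and 1 reads in wt and 2 and 3 in cko.

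Over the whole set, 58 and 68 segments had at least 1 read in the wt libraries and 47 and 54 in the cko libraries. Reads were found in 4 libraries for 15 segments and in 1 library for 44, and 59 segments had at most 3 reads in every library. Of the 110 segments, 16 passed the filter of a mean of 1 FPKM and were tested, namely 3 C, 8 V and 5 J segments, and 94 were not. Of those tested, 4 (Ighv8-12, Igkj4, Iglj1 and Iglj3p) had a cko mean under 1 FPKM and passed only on their wt values, and none passed only on its cko values.

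Of the 16 tested segments, 0 passed the methods threshold of the study (a log2 fold change of at least 1 in either direction and an adjusted p under 0.05 in limma), as did 0% of all 10779 tested genes. At an unadjusted p under 0.05 in limma there were 9 segments, all lower in cko, beside 4.95% of all tested genes that were lower and 11.4% that were higher, and voom on recovered reads called 0 segments at the methods threshold. At the threshold given in the results of the study (a log2 fold change beyond 1 and an unadjusted p under 0.01) 1 segment was lower and 0 were higher, beside 0.408% of all tested genes that were lower and 1.88% that were higher.

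Both cko libraries were below both wt libraries in 10 of the 16 segments and above them in 0, beside 18% and 33.6% of all tested genes. The median log2 fold change of the tested segments was -1.05, and that of all tested genes was 0.09. The filter itself favours segments that are high in wt here, so these values are a description. Among the 12 segments with both group means at 1 FPKM or more, 8 had both cko libraries below and 0 above. Of these 12, 0 were past the unadjusted threshold in limma and 7 had an unadjusted p under 0.05. Their median log2 fold change was -0.70. The shares over all genes with both group means at that level were not computed, so these counts have no matching background. Among the 94 untested segments, 12 had both cko libraries below both wt libraries and 7 above, most on 5 or fewer reads. The shares over all untested genes were not computed, so no excess in either direction can be read from these counts. With 2 libraries against 2, an exact two-sided permutation test of a single segment cannot give a p below 0.333.

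**Figure D4:**
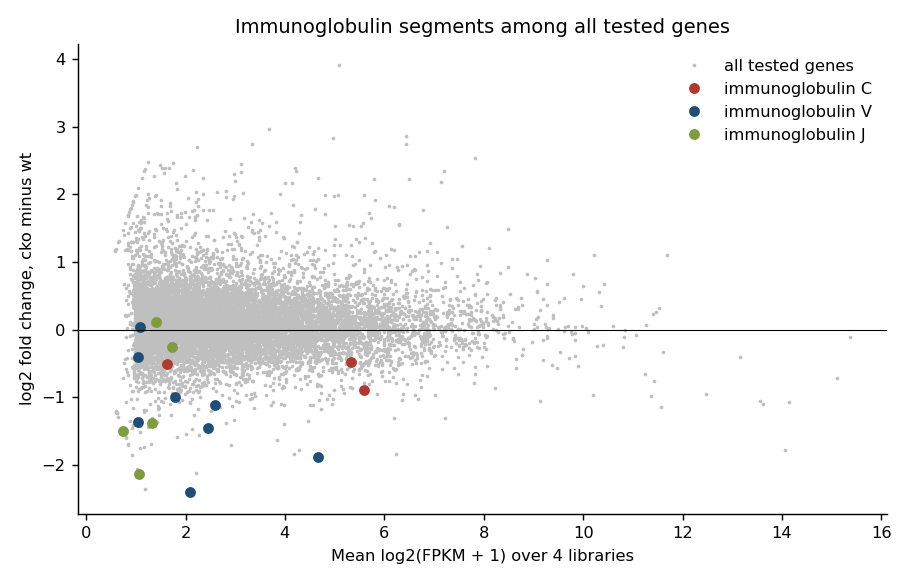
log2 fold change of cko against wt for each of the 10779 tested genes (grey) and the 16 tested immunoglobulin segments (coloured by type) against the mean log2(FPKM + 1) of the 4 libraries. Most segments lie under 0, with Ighv8-6 and Ighj3 just above it.

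Genes of the B cell receptor and its signalling were compared beside the segments. Of 11 B lineage genes, 7 were tested, and 5 of them had both cko libraries below both wt libraries and 0 above, beside 18% and 33.6% of all tested genes. Cd79b, a signalling chain of the B cell receptor, had 23.5 and 34.6 FPKM in wt and 17.6 and 22.4 FPKM in cko, and its partner Cd79a had 16.4, 21.6, 10.8 and 12.7 FPKM. Ms4a1, which encodes CD20, had 3.40, 3.13, 1.21 and 1.47 FPKM, with a log2 fold change of -0.87 ± 0.21 and an adjusted p of 0.214 in limma. None of the 7 passed either threshold, and their median log2 fold change was -0.50.

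The summed level of the 11 genes was 56.7 and 74.3 FPKM in wt and 37.5 and 49.5 FPKM in cko, so that both groups were apart there too. A pair of untested genes of mature B cells, few in reads, went the other way. Fcer2a, the low-affinity IgE receptor, had 0 and 3 reads in wt and 16 and 11 in cko, and Cr2, a complement receptor, had 5, 4, 9 and 8 reads. In both of these genes the cko libraries were above the wt libraries. Per read of these 11 genes there were 0.618 and 0.552 Ighm reads in wt and 0.706 and 0.598 in cko, and 0.250, 0.206, 0.214 and 0.169 Igkc reads. Heavy chain V reads came to 0.165, 0.288, 0.18 and 0.0779 per read of the 11 genes. In all 3 ratios the groups overlapped, whereas the levels of Ighm, Igkc and heavy chain V reads did not.

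**Figure D5:**
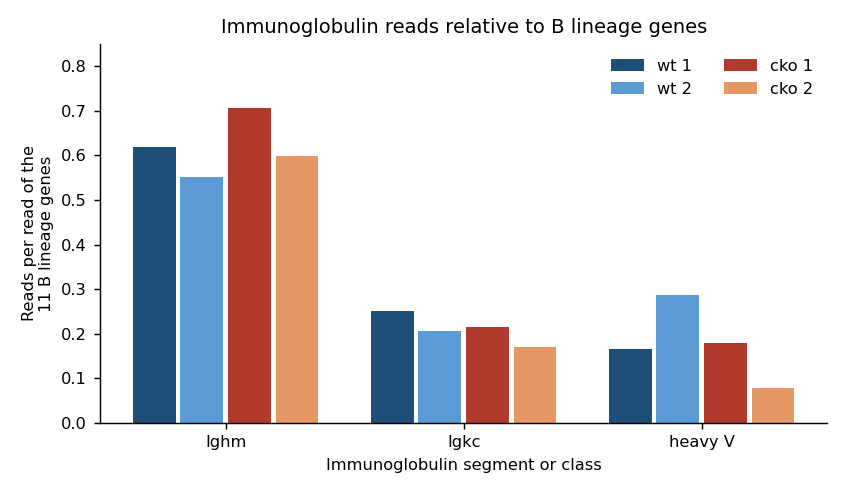
Reads of Ighm, Igkc and all heavy chain V segments divided by the reads of 11 B lineage surface and signalling genes in the same library (bars start at 0, 1 bar per library). The groups overlap in each of the 3 ratios, and cko replicate 2 has the lowest heavy V ratio at 0.0779.

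Genes of earlier B cell stages had low levels. Igll1, Vpreb1 and Vpreb2 encode parts of the surrogate light chain. Vpreb1 had 3.24 and 1.77 FPKM in wt and 0.959 and 1.07 FPKM in cko, Vpreb2 had 3.46, 1.61, 0.124 and 0.922 FPKM, and Igll1 had 2.58, 2.53, 1.11 and 1.91 FPKM. Of the 5 tested genes of the pro-B and pre-B list, 4 had both cko libraries below both wt libraries and 0 above. Over all tested genes the shares were 18% and 33.6%, and 0 of the 5 genes passed a threshold. Rag1 and Rag2, the recombinase that cuts V, D and J segments, were under 0.33 FPKM in every library and were not tested.

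The other genes of V(D)J recombination are mostly used by all cells for DNA repair or as chromatin proteins. Of 16 genes 10 were tested, with 2 below and 2 above without overlap, beside 18% and 33.6% of all tested genes. Their median log2 fold change was -0.11, and 0 passed a threshold. Dclre1c, the nuclease Artemis that opens hairpin ends, had 3.36 and 3.90 FPKM in wt and 5.0 and 8.28 FPKM in cko (adjusted p = 0.279 in limma). Hmgb2, a DNA-bending cofactor of the recombinase, had 1031 and 911 FPKM in wt and 707 and 740 FPKM in cko. Dntt, which adds bases at joints, was at 0 in 1 library of each group.

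Among transcription factors that act on immunoglobulin loci, 18 of 22 were tested. Both cko libraries were above both wt libraries in 9 and below in 2, beside 33.6% and 18% of all tested genes, and the median log2 fold change was 0.21. Spi1 (PU.1), also a master factor of myeloid cells, had 77.3 and 126 FPKM in wt and 264 and 145 FPKM in cko. Ikzf1, a lymphoid and myeloid zinc finger factor, had 32.7, 33.5, 53.1 and 53.2 FPKM (log2 fold change 0.67 ± 0.13, adjusted p = 0.199). Ebf1, a B lineage factor, overlapped at 1.09, 1.14, 1.03 and 1.19 FPKM, and Pax5, which fixes B cell identity, was under 0.40 FPKM in each library. None of the 18 passed a threshold.

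Of the plasma cell list, 7 of 8 genes were measured and 2 tested. Jchain, which links IgM pentamers, had 8 and 4 reads in wt and none in cko. Prdm1 (Blimp-1), a factor of plasma cells and of some myeloid cells, had 3 and 7 reads in wt and 40 and 205 in cko, and Derl3, of protein quality control, had 3, 4, 8 and 6 reads. Neither Prdm1 nor Derl3 was tested, and in both the cko libraries were above the wt libraries. Mzb1, a chaperone of IgM assembly, had 6.42 and 10.3 FPKM in wt and 3.95 and 8.87 FPKM in cko, with overlapping groups. Xbp1, a secretory factor of many cells, had 68.3, 67.5, 105 and 140 FPKM, and its cko libraries were above its wt libraries.

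Markers of other cells were compared as well. Over all tested genes, 18% had both cko libraries below both wt libraries and 33.6% had both above. All 12 myeloid genes were tested, with 6 below and 3 above without overlap, and a median log2 fold change of 0.01. Their sum was 94491 to 117510 FPKM in wt and 48251 to 54161 FPKM in cko, nearly all of it from S100a9, Lyz2 and S100a8. Elane, Csf3r and Csf1r had both cko libraries above both wt libraries, Csf3r with 81.5, 80.3, 104 and 140 FPKM. Lyz2, the gene in which the Cre sits, had 31306 and 32147 FPKM in wt and 10422 and 8127 FPKM in cko. Of 8 erythroid genes 7 were below without overlap, and the sum was 2330 to 3709 FPKM in wt and 1414 to 1513 FPKM in cko. Of 6 tested hepatocyte genes 3 were below, with sums of 60.4 to 102 and 43.0 to 52.6 FPKM, and of 3 tested T cell genes 2 were below, with sums of 9.13 to 12.3 and 6.62 to 7.38 FPKM. Cd3e and Trac, defining T cell genes, were each at 0 in 3 libraries, but other T cell genes were read. Cd3d had 262 and 258 reads in wt and 157 and 101 in cko. Cd4, which was not tested, had 24 and 20 reads in wt and none in cko. Cd2 and Cd3g overlapped between the groups. Lyz2, S100a8, Hbb-bs and Apoa1 were past the unadjusted threshold, all lower in cko, beside 0.408% of all tested genes that were lower. Of the genes in these lists, 0 passed the methods threshold in limma. The part of these cells in the values of the immunoglobulin segments was not tested.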

How the data were processed

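RNA-seq libraries labelled myeloid cells, 2 wt and 2 cko, were grouped by their titles. The authors deposited 1 FPKM value per gene and library. The submitters' processing notes name Bowtie2 2.2.3, TopHat2 2.0.12, HTSeq 0.6.0 and mm9, with no role or order, whereas 92.6% of the gene positions in the files were identical to GENCODE M21 (GRCm38). Read length and strand setting are not given in the sources used here. The tables list no gene at 0 in all 4 libraries.

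FPKM were multiplied by exon length (GENCODE M21) and the library total to recover reads. The library total was estimated, as the value at which FPKM times exon length of single-exon genes came out in whole reads. Recovered reads were whole, within 0.02 of a read, for 91.3% of the genes and for all 110 segments. For single-exon genes this outcome was in part sought by the estimate. RPM values and intervals rest on the estimated totals. Sums over segments use recovered reads per 1000000 counted reads. Intervals are 95% Clopper-Pearson intervals.

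Groups were compared with moderated linear models with an intensity trend (limma 3.58.1, R 4.3.3). Values entered as log2(FPKM + 1), genes under a mean of 1 FPKM were left out and no covariate was used, with Benjamini-Hochberg adjustment over all of them. This scale understates the change of low genes. The fit was tested on simulated reads in which only well-read genes were changed, so that this test does not cover segments with few reads. Alternatives were pseudocounts of 0.1 and 0.01, no filter, a stricter filter of 5 FPKM, 2 other scalings (median-of-ratios, quantile), no trend, voom on recovered reads, a block for the replicate number, and each library left out. A crossed block and a minimum mean of 10 reads were chosen after seeing the data.

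Segments, gene lists and tests were chosen with earlier results of these data known. Named are all C and J segments, the 8 V segments of each locus with the highest mean FPKM (of the kappa locus the 4 highest by name, the others within the range given), every segment past the unadjusted threshold, Pdcd1 and genes of the lists. The pseudogenes Ighv1-73, Ighv1-83 and Ighv1-41 and the T cell receptor segments are comparison groups. Sequences are GENCODE M21 transcripts, and promoters and proteins of the segments were not used here.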

Additional observations from a re-analysis of the deposited data

How the results depend on the processing

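No alternative called an immunoglobulin segment at the methods threshold. At a log2 fold change beyond 1 and an unadjusted p under 0.01, 1 segment passed as reported, and the number was 2 with a pseudocount of 0.1, 0 with a mean of 5 FPKM (6 segments tested), 4 with median-of-ratios scaling, 3 with quantile normalization, 2 with the replicate block and 0 with voom on recovered reads (8 segments tested). The 4 with median-of-ratios scaling were Ighv8-12, Igkc, Ighv1-69 and Ighv1-52. Among all 10779 tested genes, 44 were lower and 203 higher at that threshold as reported, and 63 and 215 with a pseudocount of 0.1. Median-of-ratios scaling gave 71 and 142 of these genes, quantile normalization 79 and 150 and the replicate block 43 and 215. A mean of 5 FPKM gave 25 and 101 of 5813 genes, and voom gave 45 and 203 of 12533. With 1 library left out the number of segments past that threshold varied, as did the numbers over all tested genes. In those fits the log2 fold change ranged from -1.52 to -1.20 for Ighv8-12 and from -0.92 to -0.86 for Igkc. For Ighv1-74 it ranged from -2.65 to -1.13. The replicate numbers are not stated to pair libraries (correlation -0.16 of replicate differences). A crossed replicate block gave 6 segments, beside 65 lower and 298 higher among all 10779 tested genes. Of the 40 tested genes of the B lineage, pro-B, recombination and transcription factor lists, 0 passed as reported. Ms4a1 alone made that number 1 with pseudocounts of 0.1 and 0.01, quantile normalization and voom, and 1 gene passed in the crossed replicate block. The cause was not tested. The median of all tested genes moved from 0.09 to -0.01 with median-of-ratios scaling and to -0.02 with quantile normalization. The log2 ratio of mean RPM, cko over wt, was -0.51 for heavy C, -0.63 with median-of-ratios scaling and -0.71 without Ighm. For kappa C it was -0.91, and -1.03 with median-of-ratios scaling. With 1 library left out, the ratio ranged from -2.03 to -0.94 for heavy V, -0.61 to -0.41 for heavy C, -0.94 to -0.88 for kappa C, -1.86 to -1.17 for lambda C, -0.37 to 0.10 for kappa V and -1.46 to 1.58 for heavy J, so that the last 2 classes changed sign. Fitted values of Igkj4, which had no cko reads, ranged from -8.31 to -1.26 over the alternatives.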

Other observations

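T cell receptor segments, which T cells assemble by the same recombinase, were taken as a second set of short segments. The 7 constant segments had 120 and 103 reads in wt and 51 and 60 in cko, or 5.40, 5.47, 2.72 and 3.39 RPM, and both cko libraries were below both wt libraries. Trbc2, a constant segment of the T cell receptor beta chain, had 82 and 67 reads in wt and 22 and 27 in cko, with a log2 fold change of -1.09 ± 0.20, an unadjusted p of 0.00188 and an adjusted p of 0.198 in limma. The 10 V segments had 18, 2, 5 and 14 reads and the 9 J segments 30, 4, 1 and 14 reads, with overlapping groups.

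Trbd1, a D segment of 12 bp, passed the unadjusted threshold as higher in cko on 1 read in each cko library and none in wt. Those single reads gave 4.45 and 4.71 FPKM, a fitted log2 fold change of 2.48 and an unadjusted p of 6.44e-05 in limma (adjusted p = 0.183). Of the immunoglobulin segments, Igkj4 and Iglj1 passed the same filter of a mean of 1 FPKM on 7 and 5 reads in all.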
